A study of Mus musculus with 24 samples.

Results

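AA467197 (ENSMUSG00000033213), a protein-coding gene of mouse chromosome 2, was followed in every library of a study of the lacrimal gland (LG) and of LG stem cells (LGSCs) grown as spheres. The gene was chosen by its values in these culture libraries, where its FPKM (fragments scaled to transcript length and library size) increased with culture time, so its pattern in culture is a description with no test. The 10 genes whose log2(FPKM + 1) correlated with it at 0.9 or more over 11 LGSC libraries, of 63862 genes listed, are described beside it, and they were selected on the same libraries. The study grew LGSCs from the glands of adult mice in a serum-free 3D matrix and compared spheres of different ages with adult and embryonic gland by RNA sequencing. All libraries came from C57BL/6 mice. Passage 2 LGSC spheres were sequenced at culture day 5 (2 libraries), day 7, day 10 and day 14 (3 libraries each), LG was taken from adults and from embryos at E17.5 and E19.5 (3 libraries each), and 1 library of passage 10 spheres at day 7 is compared by value. The donors of the cultures were 6 to 8 weeks old, and all cultures received EGF, FGF10, Wnt3A and the ROCK inhibitor Y-27632 in Matrigel. The labels do not say whether replicates are separate animals or cultures, so p-values measure only the spread between these libraries, which may be technical.

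AA467197, also called Nmes1, encodes a small mitochondrial protein related to Ndufa4, an accessory subunit of cytochrome c oxidase, the complex IV of the respiratory chain. The protein is known to take the place of Ndufa4 in that complex during inflammation, and the transcript is known as one that inflammatory stimuli induce in macrophages. Its human counterpart, C15orf48, was named for its presence in normal squamous mucosa of the esophagus, and in mouse the same transcript carries the hairpin of the microRNA Mir147.

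In GENCODE M21 (GRCm38) the gene runs from 122636986 to 122641191 on the plus strand of chromosome 2. Mir147 lies inside its last exon, from 122640803 to 122640881, beyond the last coding base at 122640766. No other annotated gene overlaps it. A stretch of the promoter region and the 5p arm of the microRNA are shown as regulatory sequences of the locus. The first, from RefSeq (GRCm38.p6, chr2:122637755-122637849, plus strand), lies between annotated exons and before the RefSeq start at 122637887, and its capitals mark a match to the AP-1 motif TGANTCA. The second is the 5p arm of Mir147, with its seed, bases 2 to 8, in capitals.
AA467197 promoter stretch: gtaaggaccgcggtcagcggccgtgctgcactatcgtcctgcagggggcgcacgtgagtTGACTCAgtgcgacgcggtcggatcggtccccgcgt
mmu-miR-147-5p: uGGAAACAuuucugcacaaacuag

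The promoter window of the gene, 250 bases before to 50 after the RefSeq start, was searched on both strands for 3 motifs. The AP-1 match began 73 bases before the start, and an E-box CACGTG, which does not overlap it, began 82 bases before. Of 32851 RefSeq promoters of the same length, 7.81% held the AP-1 letters and 7.15% the E-box. The NF-kB motif, present in 8.46% of promoters, was not among the letters of this window. Of the 7 correlated genes with a RefSeq promoter, only Plekha4 held the AP-1 letters, only Zfr2 the E-box and none the NF-kB motif. These matches are letters in a window, not measured binding.

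Recovered reads numbered 6434281 to 9257025 in the 20 passage 2 and tissue libraries and 25172949 in the passage 10 library. Culture replicate 2 stood apart from replicates 1 and 3 at days 7, 10 and 14, with a chi-square per degree of freedom over genes of 46.8 to 88.97 against 12.8 to 25.2 between replicates 1 and 3. Adult LG replicates 1 and 2 stood apart from adult LG replicate 3 in the same way, with 238 and 246 against 18.7 between them. The tables also hold genes of broad use at or near 0. In passage 10, 5333 genes were at 10 FPKM or more. For 2696 of them (50.6%) the passage 10 value was over 10 times the passage 2 mean at day 7. Of the 5333, 611 (11.5%) were listed at 0 in all 11 passage 2 LGSC libraries. Krt14, a keratin that marks these stem cells, was 3.35 to 17.8 FPKM in those libraries and 7065 in passage 10, and Krt8 and Epcam were listed at 0, whereas the epithelial cadherin Cdh1 was at 388 FPKM or more in each. The cause of these low listings was not tested.

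AA467197 was higher at each later culture day in every same-numbered series. At day 5 it stood at 1.17 and 7.11 FPKM in replicates 1 and 2. At day 7 it was 2.06, 11.3 and 3.99 FPKM in replicates 1, 2 and 3. The day 5 and day 7 values overlapped, with replicate 2 the highest at both days. At day 10 it was 22.5, 36.9 and 6.34 FPKM, and at day 14 it was 60.2, 119 and 119 FPKM. All 3 day 14 libraries lay above every earlier library, while day 10 replicate 3 lay below day 7 replicate 2. In bulk spheres, fewer or more cells that carry a transcript and less or more transcript per cell cannot be told apart.

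**Figure D1:**
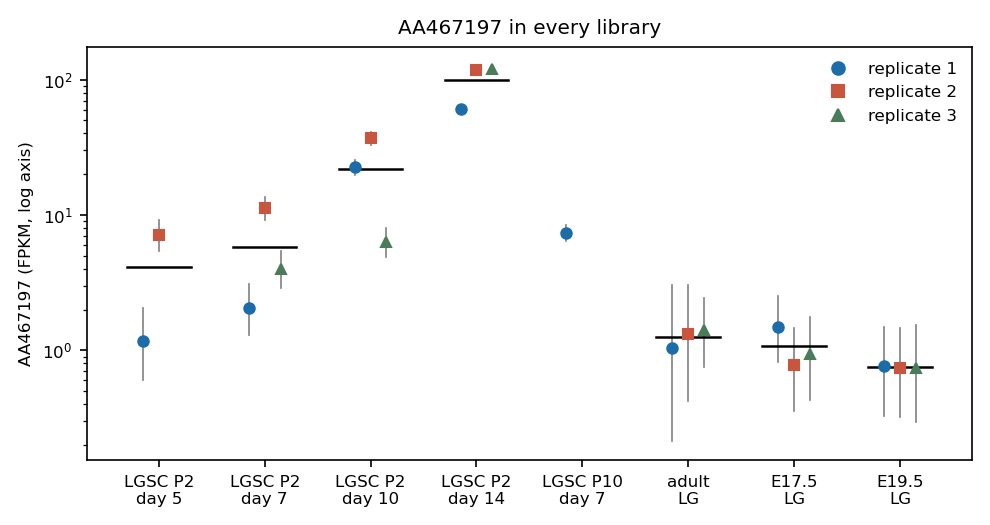
AA467197 in FPKM on a log axis (vertical) in each library, by group (horizontal). Symbols are replicates, black bars are group means, and gray lines are 95% Poisson intervals of the recovered reads. The 3 day 14 libraries sit between 60.2 and 119 FPKM and the 9 gland libraries between 0.740 and 1.496 FPKM.

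The mean was 4.14 ± 4.20 FPKM (SD, n = 2) at day 5, 5.77 ± 4.85 (SD, n = 3) at day 7, 21.9 ± 15.3 (SD, n = 3) at day 10 and 99.4 ± 34.0 (SD, n = 3) at day 14. The ratio of the day 14 mean to the day 7 mean was 17.2, and the difference of the mean log2(FPKM + 1) was 4.07. Within same-numbered series, day 14 exceeded day 7 by 29.1-fold in replicate 1, 10.5-fold in replicate 2 and 29.9-fold in replicate 3. Taken by replicate number, the libraries took different paths to day 14, although numbers did not clearly separate replicates 1 and 3 over all genes. Replicate 1 made its larger step from day 7 to day 10 (10.9-fold, against 2.67-fold afterwards), replicate 2 made similar steps (3.28-fold and 3.21-fold), and replicate 3 went up 1.59-fold and then 18.8-fold. From day 5 to day 7 the ratios were 1.76 and 1.59 in replicates 1 and 2.

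The linear slope of log2(FPKM + 1) was 0.53 per culture day (SE 0.077), the largest of 15584 genes, and 0.55 (SE 0.053) with replicate number as a block, again the largest. The median slope over all genes was within 0.01 of 0. These ranks describe the choice of the gene and carry no test. The values rest on 12 recovered reads (95% Poisson interval 6.20 to 20.96) in the lowest culture library, day 5 replicate 1, and on 645 to 1270 reads in the day 14 libraries. The intervals cover counting error only.

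In the passage 10 spheres at day 7, AA467197 was 7.41 FPKM, within the passage 2 range at day 7 and 1.28 times its mean. The passage 10 table was made against another gene list, and it has 1 library, so this is a value without a test. The interval of its 212 reads gave 6.45 to 8.48 FPKM.

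In the gland itself AA467197 was low at every stage. It was 1.03, 1.31 and 1.42 FPKM in adult LG. It was 1.496, 0.776 and 0.935 FPKM in E17.5 LG, which spans the adult values. It was 0.761, 0.740 and 0.742 FPKM in E19.5 LG, below all 3 adult libraries and all 3 E17.5 libraries. From the highest to the lowest mean the order was day 14, day 10, day 7, day 5, adult, E17.5 and E19.5. Neighbors in this order overlapped in their library values, except day 14 with day 10 and E17.5 with E19.5. The place of adult LG rests on its scaling. In adult LG replicates 1 and 2, 1 read of the gene was worth 0.345 and 0.262 FPKM, though they held 6434281 and 8139370 recovered reads. In the other gland libraries it was worth 0.0862 to 0.109 FPKM. The 3 and 5 reads of the gene in those 2 libraries were fewer than the 7 or 8 in each E19.5 library. The cause of this scaling was not tested.

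The gland libraries had no part in choosing the gene, so its differences between stages were tested with limma on log2(FPKM + 1), in 1 fit of 9 libraries over 18578 genes. E17.5 differed from adult LG by -0.14 (SE 0.16, 95% interval -0.50 to 0.23, limma adjusted p = 0.496). E19.5 differed from adult LG by -0.36 (SE 0.16, 95% interval -0.72 to -0.0033, limma adjusted p = 0.0813), and E19.5 from E17.5 by -0.23 (limma adjusted p = 0.576). None passed the threshold of 0.05. With adult LG replicate 3 as the only adult library, which is then assumed to vary like the embryonic groups, the first difference was -0.24 (limma adjusted p = 0.346) and the second -0.47 (limma adjusted p = 0.0949). These libraries held 3 to 14 reads of the gene each, and the 95% Poisson intervals of all 9 overlapped.

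The day 14 mean was 79.3 times the adult LG mean, 92.99 times that of E17.5 LG and 133 times that of E19.5 LG. The day 7 mean was 4.61 times the adult mean, with all 3 day 7 libraries above all 9 gland libraries. The 2 day 5 libraries overlapped adult LG and E17.5 LG, since day 5 replicate 1 (1.17 FPKM) lay among them. Because the culture values chose the gene, these ratios are descriptions.

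Each of the 10 correlated genes was lower than AA467197 in every day 10 and day 14 library and spanned a smaller range, while in replicate 1 locus 15038 was above it at day 5 and day 7 and Smox at day 5. They were 2 loci that the study assembled and that carry only a number, locus 15038 (r = 0.957) and locus 7488 (r = 0.904), and Syt3 (0.921), Zfr2 (0.918), Pgr (0.915), Gm42528 (0.906), Smox (0.906), Lysmd4 (0.902), Plekha4 (0.901) and Creg2 (0.9001). The 11 points share culture days and same-numbered series, and r is given without a p. Of the 10, 8 averaged 0.5 FPKM or more in culture. Of the 10, Creg2 was the nearest to the threshold. Among genes that averaged 0.5 FPKM or more in culture, Plekha4, Lysmd4 and locus 7488 were just inside it, and just outside it were Mprip (0.895), a myosin phosphatase adaptor, Slc28a3 (0.894), a concentrative nucleoside transporter, and Rnf152 (0.887), a lysosomal ubiquitin ligase. Lce1h (0.875), a late cornified envelope gene, was next among genes with a symbol.

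**Figure D2:**
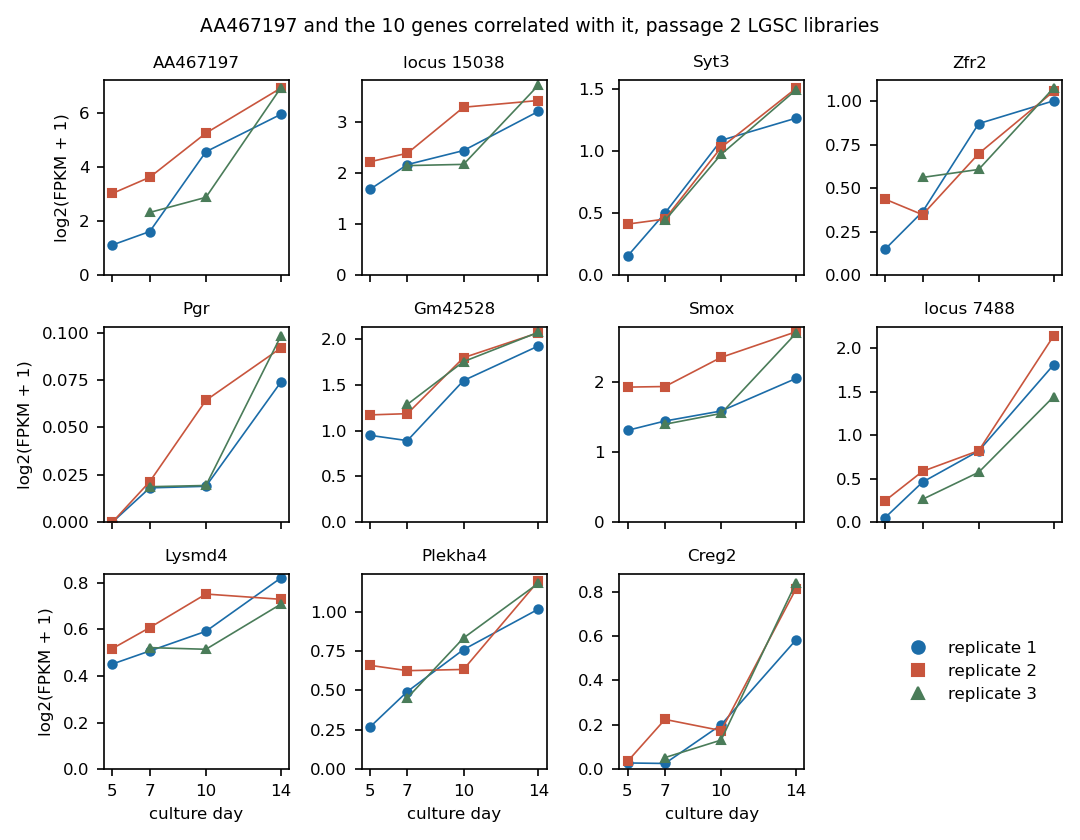
log2(FPKM + 1) (vertical, a separate scale in each panel) against culture day (horizontal) in the 11 passage 2 LGSC libraries for AA467197 and the 10 genes correlated with it, with lines joining same-numbered replicates. AA467197 reaches a log2 value above 5.9 in all day 14 libraries, while Pgr stays at or below 0.0704 FPKM.

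Locus 15038, which has no symbol or position in the tables, had the highest r. It was 2.20 and 3.65 FPKM at day 5 and 3.48, 4.22 and 3.42 FPKM at day 7. It was 4.42, 8.74 and 3.49 FPKM at day 10 and 8.21, 9.67 and 12.1 FPKM at day 14. Like AA467197 it was highest in replicate 2 at days 5, 7 and 10, and in replicate 3 it hardly moved before day 14. The locus was higher in adult LG (1.92, 1.84 and 5.31 FPKM) than in E17.5 LG (0.440, 0.690 and 0.579 FPKM).

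Smox, spermine oxidase of polyamine breakdown, shared that order. It was 1.48 and 2.80 FPKM at day 5 and 1.72, 2.82 and 1.63 FPKM at day 7. It was 2.003, 4.10 and 1.93 FPKM at day 10 and 3.14, 5.57 and 5.47 FPKM at day 14. Replicate 2 was the highest at every day. In passage 10 Smox was 37.7 FPKM, 18.3 times the passage 2 mean at day 7, whereas AA467197 was near its passage 2 level there. This contrast falls under the limit on low listings in passage 2 given above, so it is not read as an effect of passage.

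Syt3, a synaptotagmin of calcium-regulated exocytosis, was alike in the 3 series. It was 0.113 and 0.331 FPKM at day 5 and 0.416, 0.369 and 0.358 FPKM at day 7. It was 1.12, 1.04 and 0.964 FPKM at day 10 and 1.40, 1.84 and 1.81 FPKM at day 14. The day 7, day 10 and day 14 values of Syt3 did not overlap. The unclassified transcript Gm42528 went from 0.929 and 1.25 FPKM at day 5 to 2.79, 3.19 and 3.204 FPKM at day 14. Plekha4, which encodes a phosphoinositide-binding adaptor, had means of 0.391 FPKM at day 5 and 1.19 FPKM at day 14, Zfr2 of 0.232 and 1.07 FPKM, Lysmd4 of 0.400 and 0.687 FPKM, and locus 7488 of 0.112 and 2.54 FPKM. Creg2 and Pgr, the progesterone receptor, were under 0.5 FPKM on average, and Pgr rested on 0 to 5 reads a culture library.

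The membership of this group moved with the settings. With log2 values centered on each replicate number (replicate block), 154 genes reached 0.9, the 10 among them. Without LGSC day 14 replicate 2, 7 genes did, of which 1 was among the 10, and without day 14 replicate 1, 37 did, of which 7 were. By Spearman's rho 16 genes reached it, 4 of the 10 among them. Over all 20 passage 2 and tissue libraries the genes most like AA467197 were Lce1h (r = 0.940), Ecm1 (0.913), an extracellular matrix protein of squamous epithelia, Rhbdd2 (0.908), a rhomboid-family membrane protein, and the assembled loci 11113 (0.898) and 16622 (0.890). None of these was among the 10. Those points fall into a culture and a gland cluster.

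In the gland the correlated genes went in different directions. Of the 10, 7 averaged 0.5 FPKM or more in the gland libraries and were tested. In E17.5 against adult LG, Gm42528 and Pgr were higher and Syt3, locus 7488 and locus 15038 lower, 5 of 7, where 54.0% of all genes tested were called, 29.1% as higher and 24.9% as lower. In E19.5 against adult LG, Gm42528, Plekha4 and Pgr were higher and Syt3, locus 7488 and locus 15038 lower, 6 of 7, where 54.2% of all genes were called, 30.3% as higher and 23.9% as lower. Between E19.5 and E17.5 LG none of the 7 was called by limma, and 1 (Gm42528) had an unadjusted p under 0.05, where 1.74% of all genes were called, 1.11% as higher and 0.624% as lower. The median difference of the 7 from adult LG was -0.68 at E17.5 and -0.50 at E19.5, beside 0.05 and 0.09 over all genes.

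Syt3 had the largest fall. It was 16.0, 21.6 and 8.62 FPKM in adult LG, 1.44, 1.40 and 1.84 FPKM in E17.5 LG and 2.09, 1.57 and 1.92 FPKM in E19.5 LG. Every embryonic library lay far below every adult one, by -2.60 on the log2 scale at E17.5 (SE 0.28, limma adjusted p = 0.000104). Its adult level was also above its highest culture value, whereas AA467197 had its lowest means in the gland. Gm42528 went the other way, from 0.485, 0.738 and 1.04 FPKM in adult LG to 3.76, 4.16 and 3.91 FPKM in E17.5 LG, without overlap (log2 difference 1.51, SE 0.17, limma adjusted p = 0.000127). Plekha4 was 1.82, 2.62 and 5.12 FPKM in adult LG and 10.6, 6.84 and 8.18 FPKM in E19.5 LG (log2 difference 1.25, SE 0.28, limma adjusted p = 0.00525).

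Pgr was 0.243, 0.148 and 1.06 FPKM in adult LG and 1.83, 1.93 and 3.14 FPKM in E17.5 LG (log2 difference 1.18, SE 0.24, limma adjusted p = 0.00347). Adult replicate 3 was the nearest to the embryonic values. Locus 7488 was 0.701, 0.733 and 4.21 FPKM in adult LG and between 0 and 0.0539 FPKM in the 6 embryonic libraries. Its differences were -1.29 at E17.5 and -1.27 at E19.5 (limma adjusted p = 0.0201 and 0.0219). At each stage its call was lost in 3 of 8 fits that left out 1 library (limma adjusted p up to 0.0542 and 0.057). Locus 15038 differed by -1.26 and -1.30 (limma adjusted p = 0.00565 and 0.00490). With adult replicate 3 alone as the adult group, 1 library that is assumed to vary like the others, Pgr at E17.5 (0.66, limma adjusted p = 0.0596) and Plekha4 at E19.5 (0.62, limma adjusted p = 0.0604) were no longer called. Smox, at 1.92, 0.729 and 2.96 FPKM in adult LG, differed by -0.68 at E17.5 and -0.50 at E19.5 and was not called (limma adjusted p = 0.0634 and 0.153). Against adult replicate 3, its highest adult library, the differences were -1.23 and -1.05. Smox was called at each stage in 1 of 9 fits that left out 1 library (limma adjusted p = 0.00327 at E17.5 and 0.00831 at E19.5).

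**Figure D3:**
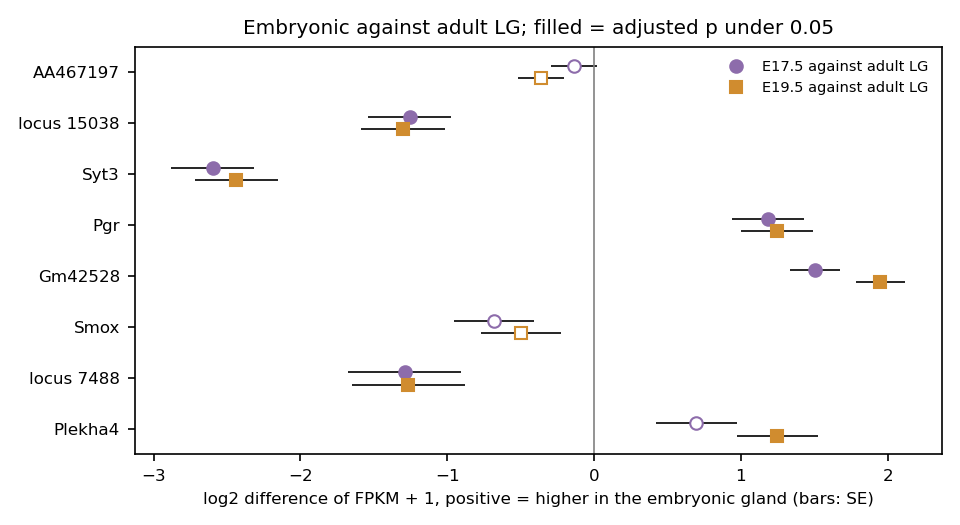
Difference in log2(FPKM + 1) of E17.5 LG (circles) and E19.5 LG (squares) from adult LG (horizontal, bars are SE) for AA467197 and the 7 correlated genes that were tested (vertical). Filled symbols have a limma adjusted p under 0.05. AA467197 lies at -0.14 and -0.36 with open symbols, and the correlated genes lie on both sides of 0.

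Neither paralog of AA467197 had a called slope over culture days. Ndufa4 was 2.21 and 0.534 FPKM at day 5, 2.58, 1.30 and 1.29 FPKM at day 7, 2.70, 2.26 and 1.09 FPKM at day 10, and 1.06, 2.85 and 2.004 FPKM at day 14. All 4 days overlapped, with a slope of 0.03 per day (SE 0.037, limma adjusted p = 0.660). In passage 10 it was 107 FPKM, 62.2 times the passage 2 mean at day 7, so its low listing in passage 2 falls under the limit on low listings given above. The level of AA467197 per length of transcript exceeded that of Ndufa4 in all 3 day 14 libraries, and in passage 10 the order was the reverse.

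Ndufa4l2, the hypoxia-responsive paralog, varied widely within days. It was 22.4 and 26.8 FPKM at day 5 and 28.6, 27.1 and 3.98 FPKM at day 7. It was 5.37, 57.0 and 6.44 FPKM at day 10 and 3.89, 215 and 102 FPKM at day 14. The 4 days overlapped and the slope was 0.13 per day (SE 0.15, limma adjusted p = 0.678), which turned to -0.0097 without day 14 replicate 2. In the gland Ndufa4l2 was 3.03, 4.90 and 10.4 FPKM in adult LG and 94.4, 57.2 and 56.8 FPKM in E17.5 LG. It rose in E17.5 against adult LG by 3.403 (SE 0.36, limma adjusted p = 9.0e-05) and in E19.5 by 3.83 (SE 0.36, limma adjusted p = 5.3e-05). Ndufa4 fell by 0.67 in E19.5 against adult LG (SE 0.24, limma adjusted p = 0.0446). That call rested on 5, 2 and 14 reads in adult LG replicates 1, 2 and 3 and on 3, 3 and 4 in E19.5 LG. The scaling of adult LG replicates 1 and 2 given above applies to it too. Ndufa4 was at most 1.50 FPKM in the gland libraries, and the cause of this low listing was not tested.

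**Figure D4:**
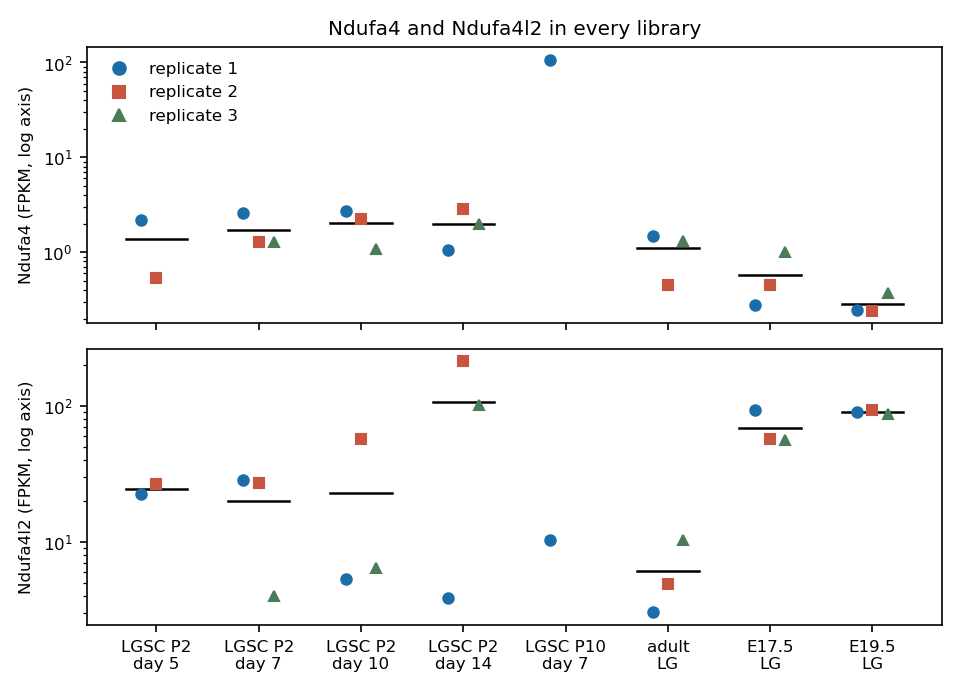
Ndufa4 (upper panel) and Ndufa4l2 (lower panel) in FPKM on log axes (vertical) in each library, by group (horizontal). Symbols are replicates and black bars are group means. Ndufa4 stays between 0.242 and 2.85 FPKM in all libraries but passage 10, and Ndufa4l2 spans 3.89 to 215 FPKM within day 14.

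Other genes of complex IV showed no called slope. Of 21 structural subunits besides the 2 paralogs, 12 were tested, and none rose or fell by limma over culture days, where 2.14% of all genes were called, 0.648% as rising and 1.50% as falling. A count of 0 among 12 is near that share. Without adjustment 2 had p under 0.05, Cox5b downward and the muscle-type subunit Cox7a1 upward. The median slope was -0.01 per day, and 5 slopes were positive and 7 negative. Of 24 assembly factors, 18 were tested and none was called. The 3 with an unadjusted p under 0.05 were the copper chaperone Cox17 (0.07 per day), Cox16 (-0.04) and the mRNA-binding Lrpprc (-0.06). With the replicate block none was called in either list, where 5.02% of all genes were, 2.12% as rising and 2.91% as falling, and the count of unadjusted p under 0.05 was 4 and 3. The subunits encoded in mitochondrial DNA were listed at or near 0 in the passage 2 libraries, as mt-Co1 was at 0 in 10 of 11, and at 5494 FPKM in passage 10.

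Genes that NF-kB, the transcription factor family of inflammatory signaling, is known to induce had mostly positive slopes. Of 32 on the list, 21 were tested, and 20 had a positive slope, where 49.9% of all genes did. The median slope was 0.10 per day. Of the 21, 2 rose, where 0.648% of all genes were called upward, and none fell. With the replicate block 6 of 21 rose, where 2.12% of all genes were called upward. No member reached a correlation of 0.9 with AA467197, and the highest was that of Ier3 (r = 0.794).

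The 2 called members were Csf2 and Ccl20. Csf2, the cytokine GM-CSF, was 0.294 and 0.184 FPKM at day 5, 0.540, 0.320 and 2.09 FPKM at day 7, 4.38, 0.974 and 1.88 FPKM at day 10, and 7.43, 2.11 and 18.0 FPKM at day 14 (slope 0.30, SE 0.064, limma adjusted p = 0.0416). Replicate 3 was the highest at day 14 and replicate 2 the lowest at every day. Ccl20, a chemokine of epithelia, was 0.166 and 0.519 FPKM at day 5, 2.13, 0.630 and 0.864 FPKM at day 7, 0.477, 3.65 and 1.46 FPKM at day 10, and 4.66, 5.38 and 3.30 FPKM at day 14 (slope 0.21, SE 0.043, limma adjusted p = 0.0355). Ccl20 was 3.30 FPKM or more in all day 14 libraries and below that in all but 1 earlier library. Each call was lost in 8 of 11 fits that left out 1 library. The limma adjusted p then ran from 0.0241 to 0.128 for Csf2 and from 0.0221 to 0.104 for Ccl20. Csf2 kept its call only without day 7 replicate 3, day 10 replicate 2 or day 14 replicate 2, and Ccl20 only without day 7 replicate 1, day 10 replicate 1 or day 10 replicate 2.

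The 4 others that rose with the replicate block, named after their values were seen, were Cxcl5, a neutrophil chemokine, Il1a, an alarmin of epithelia, Lcn2, an iron-sequestering defense protein, and Nfkbie, an inhibitor of NF-kB. Their slopes with the block were 0.20, 0.25, 0.24 and 0.14 per day, with limma adjusted p of 0.0114, 0.0201, 0.0151 and 0.0145. Their levels split by series. Cxcl5 was 36.5 to 134 FPKM in the 4 replicate 2 libraries and at least 169 FPKM in the other 7. Il1a was highest in replicate 2 at each day, with 10.8, 26.7, 46.0 and 71.2 FPKM at days 5, 7, 10 and 14. Replicate 3 was near it at day 7 (20.6 FPKM) and day 14 (69.6 FPKM), while replicate 1 was 7.61 and 11.9 FPKM at those days. Il1a shared with AA467197 the higher level of replicate 2 at days 5, 7 and 10 and the likeness of replicates 2 and 3 at day 14. Cxcl5, Lcn2, Nfkbie and Csf2 were instead lowest in replicate 2 at every day. At day 7 Lcn2 held 50, 0 and 17 recovered reads in replicates 1, 2 and 3, and Nfkbie 356, 119 and 365. Ccl20 was highest in replicate 2 at days 5, 10 and 14 and lowest there at day 7.

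**Figure D5:**
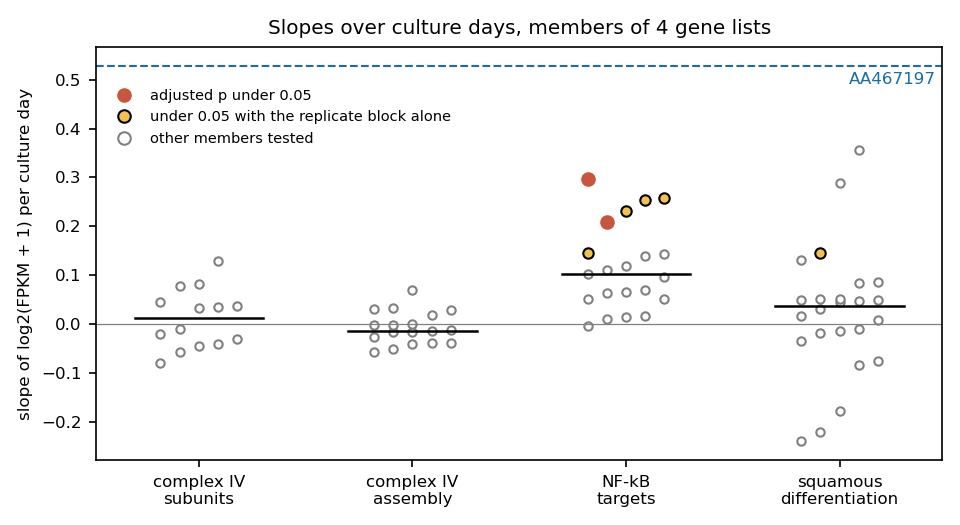
Slope of log2(FPKM + 1) per culture day (vertical) for the tested members of 4 gene lists (horizontal). Black bars are list medians, red points have a limma adjusted p under 0.05, yellow points pass it with the replicate block alone, and the dashed line is the slope of AA467197 (0.53). The NF-kB list has 2 red points and a median of 0.10.

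Genes of squamous differentiation, the program of the mucosa for which the human gene was named, had no called slope without the replicate block. Of 48, 24 were tested and none was called by limma, where 2.14% of all genes were, with 2 at an unadjusted p under 0.05, while 13 of the 48 were listed at 0 in all 11 libraries. The median slope was 0.04 per day, and 15 were positive. With the replicate block 1 of the 24, Ecm1, rose (0.16 per day, SE 0.036, limma adjusted p = 0.0384), where 2.12% of all genes were called upward. Ecm1 had the highest r of the list with AA467197 (0.846). In passage 10 Ecm1 was 639 FPKM, against 1.68 to 2.38 FPKM at day 7 in passage 2, which falls under the limit on low listings given above.

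Many squamous genes differed between same-numbered series. At day 7, 24 of the 48 averaged 0.5 FPKM or more, of which 23 were highest in replicate 2 and 12 were there over 10 times both other replicates. At day 10 the counts were 24 and 19 of 26, and at day 14 they were 21 and 15 of 24. The share of all genes with these patterns was not counted, and replicate 2 also stood apart over all genes. Whether the counts are particular to squamous genes was therefore not tested. Examples, named after their values were seen, are Krt1, a keratin of cornifying epidermis, Krt13, a keratin of squamous mucosa, and Spink5, a protease inhibitor of cornified epithelia. Krt1 was 0, 467 and 0.228 FPKM at day 7, and Krt13 was 0.248, 761 and 0.444 FPKM at day 10. Spink5 was 0.446, 257 and 8.58 FPKM at day 14. AA467197 was also highest in replicate 2 at days 5, 7 and 10, but by smaller ratios than in these examples, and at day 14 it was alike in replicates 2 and 3. The part of the squamous genes in the level of AA467197 was not tested.

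Markers of other cell types were read beside AA467197. Of 18 leukocyte markers, Adgre1 was at 0 in all 11 passage 2 LGSC libraries, Tyrobp in 10 of them, and Ptprc and Csf1r stayed below 0.05 FPKM. The summed leukocyte markers were 23.9 to 118 FPKM at day 7 and 102 to 375 FPKM at day 14, and without Cd14, the endotoxin co-receptor, they were 1.87 to 4.38 and 2.21 to 4.14 FPKM. Of 4 leukocyte markers tested, none had a called slope by limma, and 2 had an unadjusted p under 0.05. With the replicate block 2 of 4, Cd14 and Cd74, rose (0.25 and 0.07 per day, limma adjusted p = 0.00265 and 0.0379), where 2.12% of all genes were called upward. The other 2, Fcer1g and Cd79a, had slopes of -0.03 and -0.07 without the block. The 10 fibroblast markers summed to at most 3.74 FPKM and the 6 endothelial markers to at most 0.419 FPKM in any passage 2 LGSC library. In adult LG the leukocyte markers summed to 865 to 1877 FPKM, and to 273 to 755 FPKM without Cd74. AA467197 was between 1.03 and 1.42 FPKM there. The cell types that carry AA467197 were not tested. Of the 11 epithelial and gland markers 5 were tested, with 3 positive and 2 negative slopes. Ltf, the tear protein lactoferrin, rose (0.19 per day, SE 0.026, limma adjusted p = 0.00906), 1 of 5 where 0.648% of all genes were called upward. The basal keratins Krt14 (-0.12 per day, limma adjusted p = 0.189) and Krt5 (-0.04, limma adjusted p = 0.733) were not called, and with the replicate block Krt14 was at -0.11 (limma adjusted p = 0.0690).

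The neighbors of AA467197 on chromosome 2 were mostly near 0 in culture. Before it lie Slc28a2, a nucleoside transporter, Gm14085, and Gatm, an enzyme of creatine synthesis. After it lie Slc30a4, a zinc transporter, Bloc1s6, a subunit of a complex of lysosome-related organelles, and Sqor, the mitochondrial sulfide oxidase. Bloc1s6 alone was abundant in culture, at 14.2 to 24.0 FPKM, with a slope of 0.01 per day (SE 0.020, limma adjusted p = 0.883). The other 5 were at most 1.08 FPKM in every passage 2 LGSC library. Slc28a2 had reads in 3 of the 11, the replicate 2 libraries of days 7, 10 and 14, at 0.182, 0.247 and 0.561 FPKM. The libraries were made from polyadenylated RNA, and Mir147 was listed at 0 in all 21. The hairpin lies inside the last exon of AA467197, which had reads in every library, and the cause of the 0 was not tested.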

How the data were processed

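RNA sequencing tables of 21 mouse libraries were used, and 3 of the 24 samples of the series (a day 5 replicate, passages 6 and 20) were not analysed here. Libraries were poly-A selected with the NEBNext Ultra kit. The submitters' processing notes name CASAVA 1.8, HISAT2 2.0.5, featureCounts 1.5.0-p3 and the build NCBIM37. The authors deposited 1 table of FPKM per library with no coordinates. The text used here does not name the step that made the FPKM. Symbols, positions and exon lengths came from GENCODE M21 (GRCm38), which matched 52403 of 52636 Ensembl identifiers and none of 11226 assembled loci. Reads of a gene were recovered as multiples of the value of 1 read, and 92.6% to 93.6% came out whole within 0.01.

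Tests used limma 3.58.1 (lmFit and eBayes with trend, R 4.3.3) on log2(FPKM + 1), which understates the change of low genes, over genes that averaged 0.5 FPKM or more in the libraries fitted, with Benjamini-Hochberg adjustment over all genes and a threshold of 0.05. The fits were adult, E17.5 and E19.5 LG (9 libraries, 18578 genes) and a linear slope over culture days (11 LGSC libraries, 15584 genes). They were tested on simulated data. Same-numbered culture libraries of different days deviated together (r 0.260 to 0.719 over 15 pairs, mean 0.457), so slopes are also given with replicate number as a block. Differently numbered pairs had r of -0.6055 to 0.438 (mean -0.217). The numbers set replicate 2 apart but did not clearly separate replicates 1 and 3. Day 7 replicate 3 had r of 0.438 with day 10 replicate 1 and 0.401 with day 10 replicate 3. Replicate numbers did not pair the gland libraries (mean r -0.0095). Named genes were AA467197, its paralogs, the correlated genes at the top and at the threshold, those most alike over 20 libraries, list members past the slope threshold, the nearest 3 protein-coding genes on each side and Mir147. The members and lists were chosen with earlier results of these data known. Alternatives were another pseudocount, no filter, rescaled FPKM, the block, other days or libraries in the fit, and each library left out.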

Additional observations from a re-analysis of the deposited data

How the results depend on the processing

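AA467197 in culture rose from day 7 to day 14 by 3.62 to 4.62 on the log2 scale whichever day 7 or day 14 library was left out, and its gland differences passed the threshold in no alternative run (limma adjusted p for E19.5 against adult LG 0.0567 to 0.164 when a library was left out and 0.0726 to 0.637 otherwise). The slope fit was less stable. It called 334 genes, 783 with the replicate block, 82 with no filter and none with days 7, 10 and 14 alone (limma, 1833 at an unadjusted p under 0.05), and 11 to 384 with 1 library left out, the fewest without day 5 replicate 1. NF-kB targets had 2 called members, 6 with the replicate block, none with no filter or with days 7, 10 and 14 alone (limma, 16 and 6 at an unadjusted p under 0.05), and 0 to 3 with 1 library left out. Squamous genes had none, and 1 with the replicate block. With 1 library left out the slope of Ndufa4l2 ran from -0.0097 to 0.28 and that of Bloc1s6 from -0.0026 to 0.024, both below 0 only without day 14 replicate 2. The count of genes correlated at 0.9 was 10, 16 by Spearman's rho, 154 with the replicate block, and 5 to 37 with 1 library left out. The number of correlated genes called in the gland stayed at 4 to 7. In the gland, where numbers did not pair the libraries, the replicate block changed no call. The causes of these moves were not tested. Adult LG replicate 3 alone as the adult group was tried after the data were seen. AA467197 rested on 3 to 14 reads per gland library.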
